A study of Homo sapiens with 6 samples.

Results

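The annexins are described here by the 10 genes ANXA1 to ANXA8, ANXA10 and ANXA11, chosen by gene symbol from the 20388 symbols of a table of transcript levels. The levels come from MHCC-97H, a human liver cancer cell line, cultured under its wild-type genotype with either the solvent DMSO or 2 µM GK921, an inhibitor of transglutaminase 2 (TGM2), in each case for 24 h. Each treatment has 3 libraries of total RNA, and no other agent or allele is named for either group. The series concerns TGM2, histone serotonylation and MYC signalling in liver cancer, and the comparison asks how transcript levels differ once the inhibitor is present. All values come from 1 cell line, and no source says whether the 3 libraries of a group are separate cultures. The p-values therefore reflect only how far these libraries spread, which may be technical. Levels are in FPKM, fragments counted per length of transcript and per depth of sequencing, a unit that corrects for length and therefore allows levels to be set side by side between genes.

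Annexins are cytosolic proteins that bind negatively charged phospholipids when calcium rises, through a conserved core of repeats. Their N-terminal tails differ and give each member its own partners, among them small calcium-binding S100 proteins. They act in membrane repair, vesicle traffic, plasminogen activation at the cell surface and the control of phospholipase A2, and annexin A5 is the common probe for phosphatidylserine on dying cells. Several annexins are widely expressed in liver cells, while annexin A10 is best known from the gastric mucosa.

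Of the 10 genes, 8 reached a mean of 1 FPKM over the 6 libraries and were tested with limma on log2(FPKM + 1), and a Benjamini-Hochberg adjusted p under 0.05 is termed a call. ANXA10 fell about 10-fold and ANXA3 rose about 6-fold, ANXA1 and ANXA7 rose by about a factor of 1.5, ANXA4 rose and ANXA2 fell by small amounts, and ANXA5 and ANXA11 were not called. The calls thus number 4 higher, 2 lower and 2 neither. Among all 11573 tested genes, 75.9% were called, 46.8% higher and 29.2% lower, so a share of 6 in 8 is close to the background. The libraries of the groups did not overlap for 6 of the 8 annexins, against 78% of all tested genes. The median log2 change of the 8 was 0.11, beside 0.16 over all tested genes. That median is not 0, and the small changes differed with how the libraries were scaled. With libraries rescaled by median ratios, 74.1% of genes were called (4267 higher and 4314 lower, beside 5411 and 3378 as deposited), and the annexins stood at 3 higher and 4 lower.

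**Figure D1:**
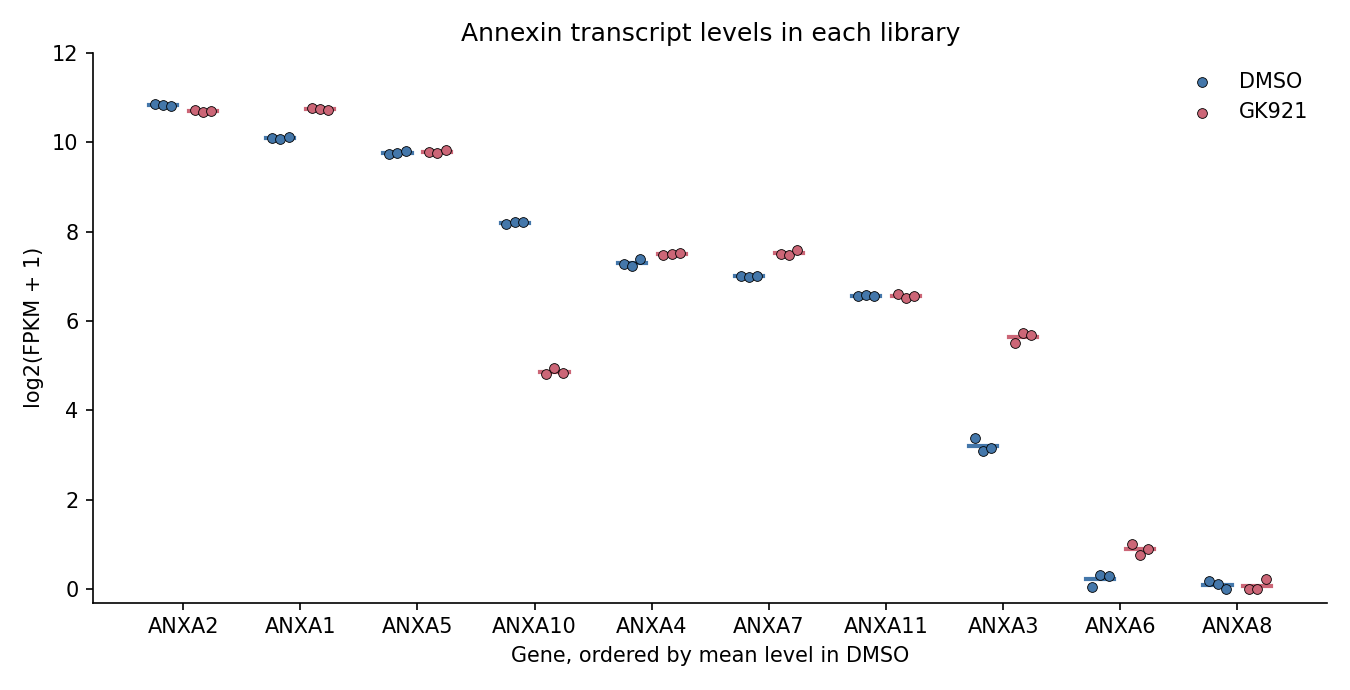
Level of each annexin in each library on the log2(FPKM + 1) scale (points, 3 per group), with the group mean as a bar and genes ordered by their mean in DMSO. ANXA10 lies far lower and ANXA3 far higher after GK921, while ANXA6 and ANXA8 sit near 0 in both groups.

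The steps common to low FPKM values put the depth of the 6 libraries between 0.768 and 1 relative to the deepest, each GK921 library being shallower than each DMSO library, and the sources used here do not give absolute depth. On the log2 scale, libraries of a group correlated across tested genes at r of at least 0.993, and libraries of different groups at 0.914. The mRNA of TGM2 was at 42.1 ± 0.0265 FPKM in DMSO and 42.6 ± 0.345 after GK921 (SD, n = 3 per group, as for every mean below; limma adjusted p = 0.71). None of 10 hepatocyte markers, ALB, APOA1 and TTR among them, reached a mean of 1 FPKM. Their highest single value was 1.03 FPKM, so the transcripts that define a mature hepatocyte are near absent, and APOA2 was listed at 0 throughout. Summed over 5 cholangiocyte markers the level was 262 to 274 FPKM in DMSO and 170 to 185 after GK921 (CFTR at 0), and 3 of the 5 reached the limit. KRT19 made up nearly all of that sum and fell, as did SOX9 from a low level, while KRT7 rose from 2.35 ± 0.768 to 7.92 ± 0.945 FPKM (limma adjusted p = 7.04e-05). Of 5 leukocyte markers 1 reached the limit, with sums of 0.04 to 1.58 FPKM in DMSO and 0.96 to 4.06 after GK921. Of 5 endothelial markers 2 did, with sums of 5.36 to 5.90 and 6.40 to 8.05 (CDH5 at 0). Of 6 fibroblast markers only DCN did, with sums of 7.45 to 9.30 in DMSO and 1.07 to 1.62 after GK921, and the part of these shifts in the annexin results was not tested.

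Annexin promoters differed in base composition, and the 3 printed here belong to the genes with the largest fall and the largest rise and to ANXA1, the most abundant annexin that rose. They are the 250 bases before the RefSeq start of transcription in GRCh38.p14, each on the plus strand, at chr4:168092287-168092536 for ANXA10, chr9:73151615-73151864 for ANXA1 and chr4:78551520-78551769 for ANXA3. GENCODE 29 places some starts further upstream, so 250 of the 250 bases printed for ANXA3, 108 of those for ANXA1 and 22 of those for ANXA10 lie inside the gene as positioned below. Capitals mark matches to the motifs named after them.
ANXA10: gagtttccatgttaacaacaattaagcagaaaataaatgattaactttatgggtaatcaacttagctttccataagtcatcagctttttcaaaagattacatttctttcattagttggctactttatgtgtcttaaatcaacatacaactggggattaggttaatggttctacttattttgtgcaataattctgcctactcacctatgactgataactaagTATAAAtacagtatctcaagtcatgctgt
ANXA1: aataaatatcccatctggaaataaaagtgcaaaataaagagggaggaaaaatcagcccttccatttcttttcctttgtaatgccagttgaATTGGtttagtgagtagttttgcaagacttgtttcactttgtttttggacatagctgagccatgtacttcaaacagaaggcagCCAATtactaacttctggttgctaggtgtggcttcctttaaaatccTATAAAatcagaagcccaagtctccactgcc
ANXA3: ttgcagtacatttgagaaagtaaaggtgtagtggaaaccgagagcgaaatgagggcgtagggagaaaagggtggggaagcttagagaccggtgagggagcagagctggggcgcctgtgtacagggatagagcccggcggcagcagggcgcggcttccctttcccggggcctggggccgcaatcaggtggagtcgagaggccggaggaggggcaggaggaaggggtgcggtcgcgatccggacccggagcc
The stretch before ANXA10 had 31.2% G and C with 0 CpG dinucleotides, and that before ANXA1 had 38.4% with 0. The ANXA3 stretch had 64% and 18 CpG, where the median of 35116 such promoters was 58% and 11. Motifs were searched on both strands, and a match is a description of letters only. A TATA box (TATAAA) lay at bases 29 to 24 before the start in ANXA10 and 31 to 26 in ANXA1, and 10.7% of all promoters held one. ANXA1 also held the CCAAT box (CCAAT) at 2 places, as did 32% of promoters at 1 or more. None of the searched motifs matched in ANXA3. The MYC E-box (CACGTG, 6.34% of promoters), the AP-1 site (TGANTCA, 6.57%), the CRE (TGACGTCA, 1.65%), the C/EBP-ATF site (TGATGCAA, 0.772%), the endoplasmic reticulum stress element (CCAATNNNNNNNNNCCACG, 0.074%), which contains the CCAAT box, and the GC box (GGGCGG, 42.6%) were in none of these 3 stretches. Promoters of 9 of the 10 annexins were matched by symbol, and among them an E-box occurred in ANXA4 and ANXA6, and an AP-1 site in ANXA2. ANXA4, ANXA6 and ANXA11 had more than 1 promoter each, while the percentages count single promoters. The E-box of ANXA4 was only in the promoter that starts at 69741884. All 250 bases of that promoter, and of the ANXA2 promoter, lie inside the gene as positioned below.

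ANXA10 (chromosome 4, 168092515 to 168187690 in GRCh38, plus strand) encodes a divergent annexin in which most of the calcium-binding sites of the core are altered. In DMSO its level was 286, 296 and 298 FPKM in the 3 libraries, and after GK921 it was 27.3, 29.7 and 27.5 FPKM. Every GK921 library lay far under every DMSO library. The mean went from 294 ± 6.41 to 28.1 ± 1.35 FPKM, a 10.4-fold fall with a log2 change of -3.34 ± 0.043 (SE, limma adjusted p = 1.12e-10). Its log2 change ranked 18 from the lowest among the 11573 tested genes. The fall was called under each of the 17 alternative settings tried. In bulk libraries, fewer cells that make a transcript and less transcript per cell cannot be told apart.

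ANXA3 (chromosome 4, 78551519 to 78610451, plus strand) encodes an annexin known as an inhibitor of phospholipase A2 and as an anticoagulant of placenta. Its level was low in DMSO, at 9.51, 7.51 and 7.92 FPKM, and rose to 44.5, 52.55 and 51.0 FPKM. The lowest GK921 library was thus well above the highest DMSO library. The means were 8.31 ± 1.06 and 49.35 ± 4.24 FPKM, a 5.94-fold rise with a log2 change of 2.44 ± 0.094 (limma adjusted p = 3.60e-08). This placed ANXA3 at rank 86 from the top among tested genes. In DMSO the cells held 35.7 ± 4.95 ANXA10 transcripts per ANXA3 transcript by FPKM, and after GK921 0.572 ± 0.0370.

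The largest change in FPKM itself was that of ANXA1 (chromosome 9, 73151757 to 73170393, plus strand), whose product annexin A1 is induced by glucocorticoids, is a substrate of the EGF receptor kinase and signals through formyl peptide receptors. The DMSO libraries held 1090.3, 1084 and 1120.3 FPKM and the GK921 libraries 1746, 1725 and 1681, with a wide gap between the groups. The mean rose 1.56-fold, from 1098 ± 19.3 to 1717 ± 33.1 FPKM (log2 change 0.64 ± 0.024, limma adjusted p = 2.61e-08). ANXA7 (chromosome 10, 73375101 to 73414076, minus strand) encodes synexin, which promotes membrane fusion in exocytosis and binds the calcium-binding protein sorcin. Its values were 129, 126 and 128 FPKM in DMSO, among the tightest of the family, and 181, 179 and 190.5 after GK921. It rose 1.43-fold, from 128 ± 1.19 to 183 ± 6.29 FPKM (log2 change 0.52 ± 0.034, limma adjusted p = 1.13e-06). ANXA1 and ANXA7 were called higher under all 17 alternative settings, and so was ANXA3.

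**Figure D2:**
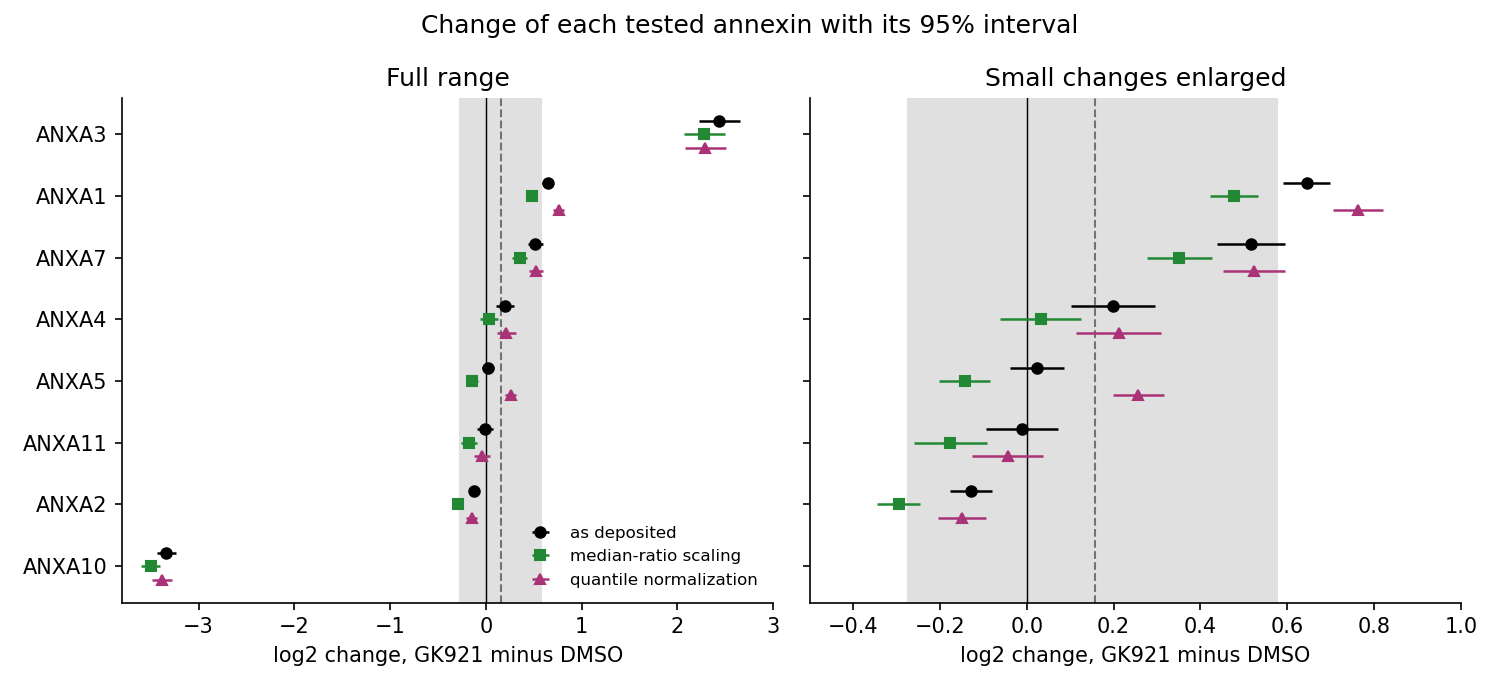
Log2 change (GK921 minus DMSO) of the 8 tested annexins with 95% intervals from limma, for values as deposited, after median-ratio scaling and after quantile normalization. The dashed line is the median of all tested genes as deposited (0.16) and the grey band runs from their lower to their upper quartile (-0.27 to 0.58). That median was 0.0070 after median-ratio scaling and 0.027 after quantile normalization, which are not drawn. The right panel enlarges the small changes, where ANXA5 lies at 0.023, -0.14 and 0.26 under the 3 scalings.

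In the values as deposited, ANXA2 and ANXA4 changed by less than 1.2-fold. ANXA2 (chromosome 15, 60347134 to 60402883, minus strand) encodes a subunit of the annexin A2 and S100A10 complex, which sits under the plasma membrane and binds plasminogen and its activator. Its values of 1852, 1828 and 1796 FPKM in DMSO and 1687, 1648 and 1673 after GK921 did not overlap. The mean fell 1.09-fold, from 1825 ± 28.2 to 1669 ± 19.9 FPKM (log2 change -0.13 ± 0.021, limma adjusted p = 0.000452), and the fall kept its call under each rescaling. Its log2 change was -0.30 with median-ratio, -0.22 with upper-quartile and -0.15 with quantile scaling. ANXA4 (chromosome 2, 69644425 to 69827100, plus strand) encodes an annexin of secretory epithelia. It was at 154, 149 and 166 FPKM in DMSO and at 176, 179.8 and 183 after GK921, again without overlap. The mean was 157 ± 8.70 FPKM in DMSO and 179.6 ± 3.38 after GK921, a 1.15-fold rise by limma (log2 change 0.20 ± 0.043, adjusted p = 0.00237). It was not called after median-ratio scaling (0.032, limma adjusted p = 0.501). As deposited, neither change passed a test against a 1.2-fold change (limma treat adjusted p = 1 for each). ANXA4 overlaps AAK1 on the opposite strand, and no source used here gives the strand handling of the counting.

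ANXA5 (chromosome 4, 121667955 to 121697113, minus strand), the phosphatidylserine binder, was at 859.9, 861 and 894 FPKM in DMSO and 884, 864 and 909 after GK921. The groups overlapped, with means of 871 ± 19.1 and 886 ± 22.8 FPKM. Its log2 change was 0.023 (95% interval -0.039 to 0.086, limma adjusted p = 0.462), but -0.14 and called lower after median-ratio scaling (0.000921), and 0.26 and called higher after quantile normalization (2.12e-05). No direction can be given for ANXA5, since the sign followed the scaling. ANXA11 (chromosome 10, 80150889 to 80205572, minus strand) encodes an annexin with a long N-terminal tail that tethers RNA granules to lysosomes. Its libraries held 93.9, 94.9 and 93.1 FPKM under DMSO, then 96.3, 90.2 and 93.3 after GK921, and the GK921 libraries enclosed the DMSO ones. The log2 change was -0.011 (95% interval -0.095 to 0.073, limma adjusted p = 0.795). It was -0.18 and called lower after median-ratio scaling (0.00219).

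ANXA6 and ANXA8 stayed under the limit of a mean of 1 FPKM and were not among the tested genes. ANXA6 (chromosome 5, 151100712 to 151157882, minus strand) encodes the annexin with a duplicated core, which binds cholesterol-rich endosomes. It was listed at 0.04, 0.25 and 0.22 FPKM in DMSO and at 1.02, 0.71 and 0.86 after GK921. The groups did not overlap, and in a fit without the expression limit the log2 change was 0.67 ± 0.10 (limma adjusted p = 0.000868 over 15942 genes). In that fit 9181 of the 15942 genes were called, and values this near 0 rest on few fragments. ANXA8 (chromosome 10, 47460162 to 47484158, minus strand) was listed at 0.14, 0.08 and 0 FPKM in DMSO and at 0, 0 and 0.17 after GK921, and no fold is given. Without the expression limit its log2 change was -0.025 (limma adjusted p = 0.824). Its longest coding transcript in GENCODE 29 is 99.4% identical over its whole length to ANXA8L1, a neighbouring copy, so the reads of these genes cannot be assigned with certainty. ANXA8L1 had 0 FPKM in every DMSO library, against 0.58, 0.39 and 0.17 after GK921. ANXA2 shares 98.4% identity over 60.9% of its longest coding transcript with the processed pseudogene ANXA2P2, which has no row among the values, so how reads common to them were counted is unknown.

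The order of the levels changed within the family. In DMSO it ran ANXA2, ANXA1, ANXA5, ANXA10, ANXA4, ANXA7, ANXA11, ANXA3, ANXA6, ANXA8, and among neighbours in that order only ANXA6 and ANXA8 overlapped in their libraries. After GK921 it ran ANXA1, ANXA2, ANXA5, ANXA7, ANXA4, ANXA11, ANXA3, ANXA10, ANXA6, ANXA8. There ANXA1 and ANXA2 overlapped, as did ANXA7 and ANXA4. The ratio of ANXA1 to ANXA2 within a library went from 0.602 ± 0.0192 to 1.03 ± 0.0217. ANXA10 moved from the fourth to the eighth place.

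The 10 genes summed to 4475 ± 28.0 FPKM in DMSO and 4807 ± 37.8 after GK921, or 0.536% and 0.582% of all FPKM in a library. ANXA2 made up 40.8 ± 0.804% of that sum in DMSO and 34.7 ± 0.146% after GK921, and ANXA1 24.5 ± 0.292% and 35.7 ± 0.674%. ANXA5 held 19.5 ± 0.328% and 18.4 ± 0.423%. These 3 genes together were 84.8% of annexin FPKM in DMSO and 88.9% after GK921. ANXA10 shrank from 6.56 ± 0.141% to 0.586 ± 0.0326%, and ANXA3 went from 0.186 ± 0.0234% to 1.03 ± 0.0955%. A sum of FPKM weighs the abundant genes, and it hides the changes of ANXA10 and ANXA3.

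**Figure D3:**
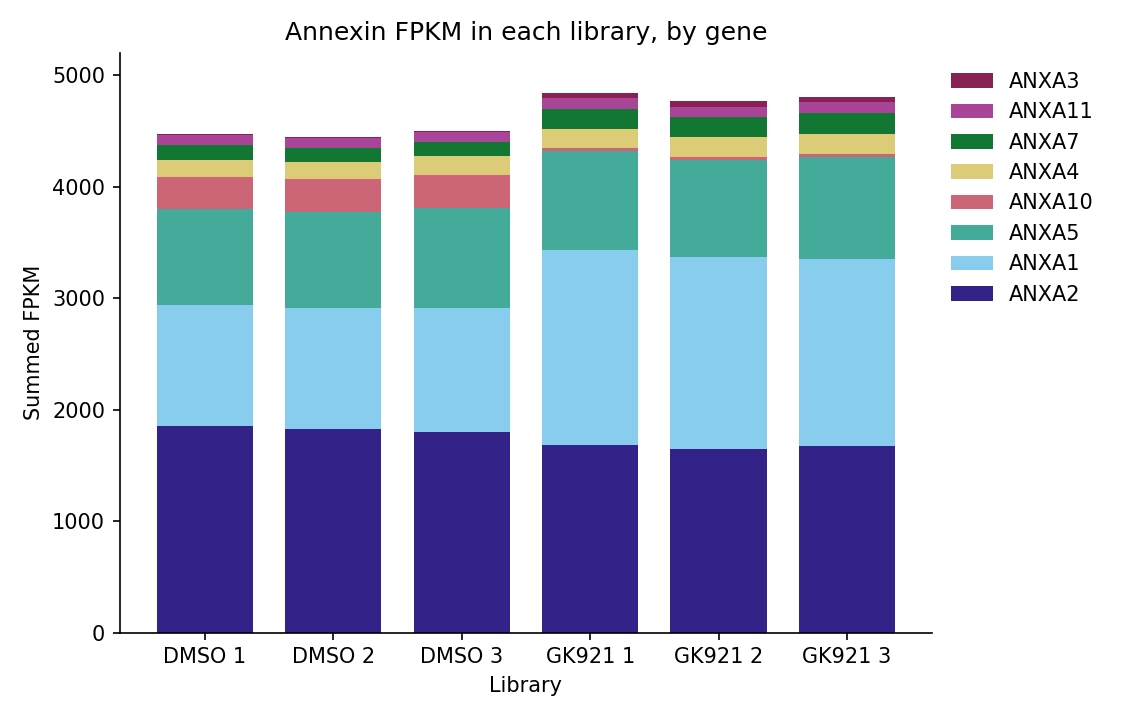
FPKM of 8 annexins stacked for each of the 6 libraries, from 0 on a linear axis; ANXA6 and ANXA8 are too low to show. ANXA1 takes a larger part and ANXA10 a much smaller part of the stack in the 3 GK921 libraries.

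S100 proteins that bind annexins were compared through their ratios within a library, which do not depend on how libraries are scaled to each other by a common factor. S100A10, the partner of annexin A2, fell 1.94-fold, from 4508 ± 115 to 2325 ± 36.1 FPKM (limma adjusted p = 2.95e-09). The ratio of ANXA2 to S100A10 was 0.405, 0.418 and 0.392 in the DMSO libraries and 0.726, 0.719 and 0.708 in the GK921 libraries, a 1.77-fold difference with no overlap. S100A11, which binds the tail of annexin A1, was at 2897 ± 22.6 and 2794 ± 77.2 FPKM (limma adjusted p = 0.0678), and its call followed the scaling, lower with median ratios and higher with quantile normalization, and was lower without GK921 library 1 (0.00640). ANXA1 to S100A11 stood at 0.374, 0.374 and 0.390 in DMSO and 0.606, 0.630 and 0.608 after GK921, 1.62-fold apart. S100A6, a partner of annexin A11, fell 1.68-fold, from 4686 ± 163 to 2785 ± 165 FPKM (limma adjusted p = 3.81e-07). ANXA11 to S100A6 was 0.0197, 0.0211 and 0.0194 in DMSO and 0.0324, 0.0339 and 0.0343 after GK921, 1.67-fold apart. In each of the 3 ratios every GK921 library lay above every DMSO library, and the exact two-sided permutation p was 0.1 (0.1 after Benjamini-Hochberg adjustment over the 3), the smallest that 3 against 3 allow. The log2 differences of the ratios were 0.83, 0.70 and 0.74 as deposited and shrank to 0.41, 0.43 and 0.23 after quantile normalization, an alternative chosen after seeing the data. S100A4, another ligand of annexin A2, fell 5.2-fold, from 4403 ± 126 to 847 ± 27.4 FPKM. Of 4 tested genes on this list 3 were lower and 0 higher, with a median log2 change of -0.85, where 29.2% of all tested genes were lower. Median-ratio scaling gave 4 lower, and quantile normalization gave 3 lower and 1 higher with a median of -0.42. Of all 11573 tested genes, 4314 were lower with median ratios. With quantile normalization 4069 of them were lower and 4396 higher. Under quantile normalization the log2 change of S100A10 was -0.56 instead of -0.95 and that of S100A6 was -0.28 instead of -0.75, each still called lower. S100B was listed at 0 in every library and S100A12 in 5 of 6.

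**Figure D4:**
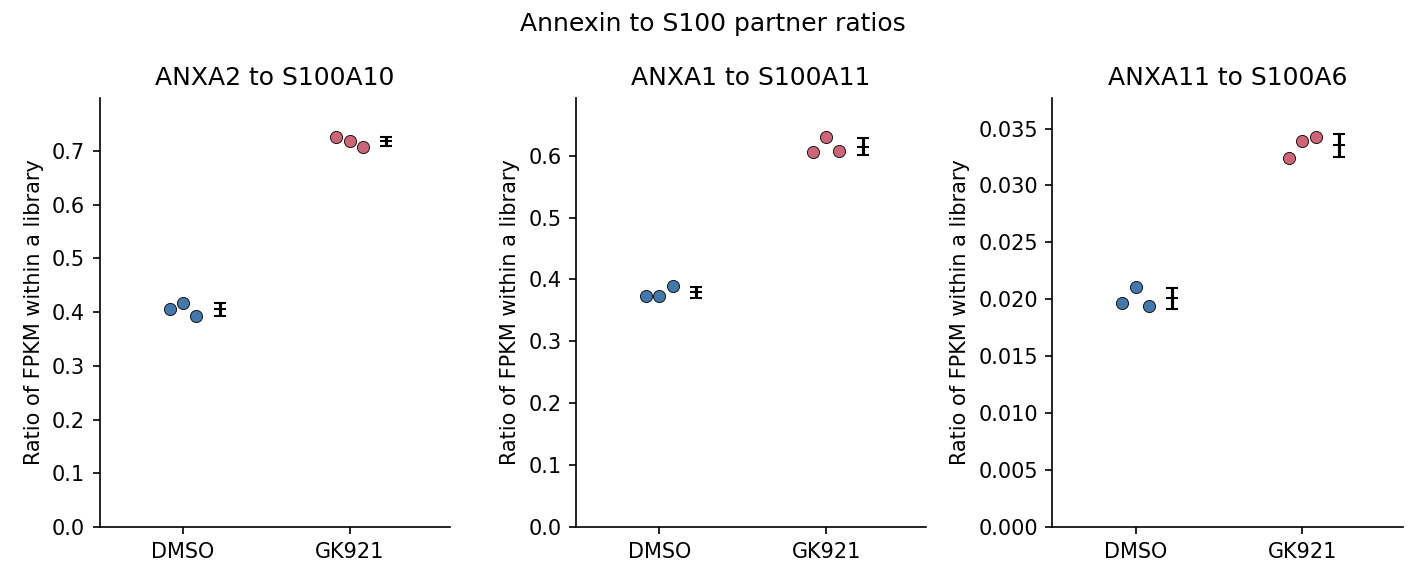
Ratio of annexin FPKM to partner S100 FPKM within each library for ANXA2 to S100A10, ANXA1 to S100A11 and ANXA11 to S100A6 (points), with mean and SD of 3 libraries beside them and axes from 0. The GK921 libraries lie above the DMSO libraries in each panel, with the largest difference, 1.77-fold, for ANXA2 to S100A10.

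Other annexin loci were low. ANXA9, a diverged annexin, was at 4.66, 3.52 and 3.80 FPKM in DMSO and 2.57, 2.55 and 3.39 after GK921, and fell 1.41-fold (log2 change -0.38 ± 0.14, limma adjusted p = 0.0288). The call did not hold when DMSO library 1 or 3, or GK921 library 1 or 2, was left out (limma adjusted p up to 0.109). ANXA13 reached at most 0.4 FPKM in any library, and ANXA2R was at 2.20 ± 1.08 and 2.56 ± 0.662 FPKM (limma adjusted p = 0.501).

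Among 11 tested genes for binding partners outside the S100 family, 6 were called higher and 2 lower (median log2 change 0.36). Of all tested genes 46.8% were called higher and 29.2% lower, with a median of 0.16, and no list was tested as a set. SRI, which encodes the annexin A7 partner sorcin, rose 1.46-fold from 101 ± 3.80 to 147 ± 8.68 FPKM (limma adjusted p = 9.86e-06), beside the 1.43-fold rise of ANXA7. PDCD6, whose product ALG-2 binds annexins A7 and A11, was at 199.7 ± 1.58 and 191 ± 15.8 FPKM (limma adjusted p = 0.255), a gene called lower with median-ratio scaling and without GK921 library 3. EGFR, the receptor kinase that phosphorylates annexin A1, rose 2.35-fold from 31.4 ± 1.33 to 73.9 ± 1.06 FPKM. AHNAK, the giant scaffold bound by the annexin A2 and S100A10 complex, fell 1.58-fold from 203 ± 2.51 to 128 ± 3.78 FPKM. The cytosolic phospholipase A2 gene PLA2G4A fell 2.08-fold to 5.34 ± 0.575 FPKM, and STING1, an innate immune adaptor, rose 1.79-fold to 14.6 ± 1.56 FPKM. With median-ratio scaling the list stood at 6 higher and 4 lower, where 4267 of all 11573 tested genes were higher and 4314 lower.

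Of 13 tested membrane repair genes, 7 rose and 4 fell (median log2 change 0.10), but 3 rose and 7 fell after median-ratio scaling. Over all tested genes 46.8% were called higher and 29.2% lower, and after median-ratio scaling 4267 and 4314 of 11573. These shares also stand beside the plasminogen counts below. TRIM72, the repair ligase MG53, rose 5.54-fold from 3.75 ± 0.153 to 20.8 ± 2.69 FPKM (limma adjusted p = 9.17e-08). SYT7, a calcium sensor of lysosomal exocytosis, went from 0.927 ± 0.219 to 2.35 ± 0.307 FPKM (log2 change 0.80). Its DMSO mean lay under the limit of 1 FPKM, so it was tested only through its GK921 values. The endosomal ATPase gene EHD1 fell 1.55-fold to 66.8 ± 0.580 FPKM and the calpain gene CAPN1 1.45-fold to 73.4 ± 3.23 FPKM. The higher calls of EHD2, CHMP4A and CHMP4B were each lost when single libraries of either group were left out (limma adjusted p up to 0.0906), and CAV1, at 2961 ± 20.65 and 3179 ± 69.15 FPKM, was called higher as deposited and lower with median-ratio scaling. Of 7 tested genes of plasminogen activation, 4 rose and 3 fell, with 2 higher and 3 lower after median-ratio scaling. The activator gene PLAT rose 2.94-fold from 3.01 ± 0.448 to 8.84 ± 0.554 FPKM. ENO1, an enolase that also binds plasminogen, fell 1.58-fold to 1155 ± 12.01 FPKM. PLGRKT, a plasminogen receptor, was at 11.5 ± 3.00 and 16.4 ± 1.09 FPKM, and its higher call was lost with median-ratio scaling and without GK921 library 2 or 3 (limma adjusted p up to 0.0560). PLG, for plasminogen itself, was listed at 0 in 5 of 6 libraries.

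The formyl peptide receptors through which annexin A1 signals were near absent, with FPR1, FPR2 and FPR3 each listed at 0 in 5 of 6 libraries. In that list of receptors, phospholipases and eicosanoid enzymes, 4 genes were tested and 2 rose and 2 fell. PLA2G4A, counted above among the binding partners, is also among the genes that fell here. Over all tested genes 46.8% were called higher and 29.2% lower, shares that also stand beside the phosphatidylserine counts below. PLA2G6 rose 3.49-fold to 5.14 ± 0.0808 FPKM, while the lipoxygenase gene ALOX5 fell 1.90-fold to 3.16 ± 0.217 FPKM. PTGS2, the inducible cyclooxygenase, was at 22.6 ± 1.22 and 25.98 ± 1.096 FPKM and called higher (limma adjusted p = 0.0165), a call lost with each rescaling and without library 1 of either group (limma adjusted p up to 0.0608). Of 10 tested genes for exposure of phosphatidylserine, the lipid annexins bind, 4 rose and 4 fell, with 3 and 6 after median-ratio scaling. After that scaling 4267 of all 11573 tested genes were higher and 4314 lower. The flippase gene ATP11A fell 1.94-fold to 3.97 ± 0.274 FPKM, and ATP8B1 rose 1.82-fold to 27.0 ± 1.12 FPKM. The scramblase gene XKR8 rose 1.63-fold to 6.92 ± 0.252 FPKM, and the flippase gene ATP11B 1.45-fold to 28.6 ± 0.680 FPKM.

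Other calcium-dependent phospholipid binders moved in both directions as well. Of 5 tested copines, 1 rose and 1 fell, with 1 and 3 after median-ratio scaling, and CPNE1 fell 1.22-fold to 84.4 ± 0.757 FPKM. The rise of CPNE2, 1.51-fold to 7.18 ± 0.595 FPKM, was not called after quantile normalization. Among 11 tested genes of proteins with C2 domains, 5 rose and 4 fell. These counts and those of the copines stand beside 46.8% higher and 29.2% lower over all tested genes as deposited. The copine counts after median-ratio scaling stand beside 4267 higher and 4314 lower of 11573. The synaptotagmin-like gene SYTL2 fell 5.45-fold from 38.8 ± 0.626 to 7.12 ± 0.330 FPKM and SYTL5 from 3.26 ± 0.414 to 0.307 ± 0.206 FPKM. The GK921 mean of SYTL5 lay under the limit of 1 FPKM, so it was tested only through its DMSO values. The protein kinase C gene PRKCE rose 2.72-fold to 5.29 ± 0.415 FPKM, as did SYTL1, 2.72-fold to 4.40 ± 0.461 FPKM.

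**Figure D5:**
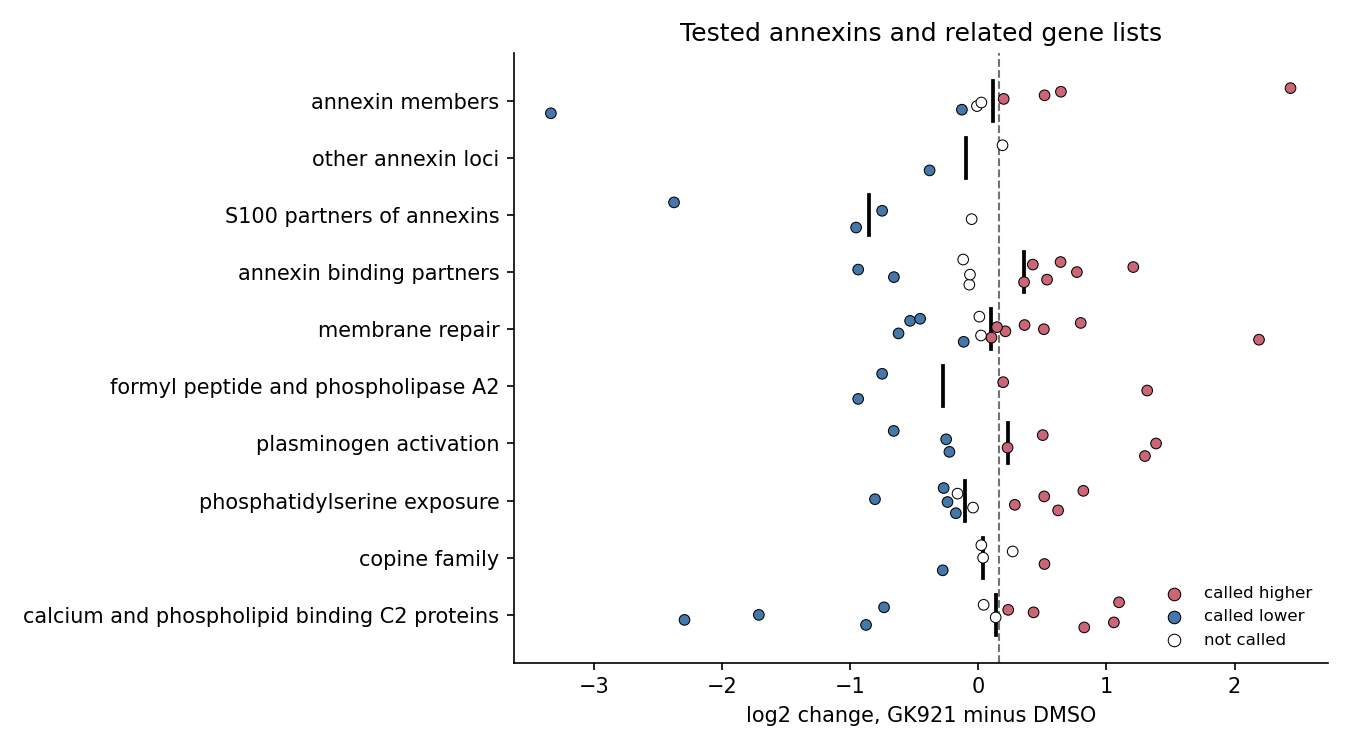
Log2 change (GK921 minus DMSO) of each tested annexin and of each tested gene on the related lists, coloured by its call, with the list median as a black bar and the median of all tested genes (0.16) as a dashed line. Calls lie on both sides of 0 in the annexins and in most lists, while no tested S100 partner was called higher in the values as deposited.

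Genes that overlap an annexin, as AAK1 overlaps ANXA4, were not taken as neighbours. The nearest tested genes beside an annexin moved in either direction, and not all of them were close. Their gaps to the called annexins ran from 2.54 kb (GMCL1 from ANXA4) to 2749 kb (MSMO1 from ANXA10). For the 6 annexins with a call, the nearest tested gene on either side gave 12 neighbours, of which 2 were called in the same direction, 6 in the opposite direction and 4 not at all. Of all tested genes 46.8% were called higher, 29.2% lower and the rest not at all. Whether the neighbours depart from these shares was not tested. ALDH1A1, 71.3 kb from ANXA1, encodes a retinal dehydrogenase and fell from 1218 ± 10.2 to 159 ± 3.19 FPKM (log2 change -2.93). DDX60, 28.6 kb beyond ANXA10, encodes a helicase of the antiviral response and rose from 3.72 ± 0.133 to 9.85 ± 0.335 FPKM (log2 change 1.2). The neighbours of ANXA7, MRPS16 and PPP3CB, were not called.

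The genes whose pattern over the 6 libraries lay nearest to an annexin were found by Euclidean distance between log2(FPKM + 1) values, each gene centred on its mean. For ANXA3 these were TLCD2, NUCB2 and IFI35, at distances of 0.21, 0.22 and 0.23, where the median tested gene was at 2.82. TLCD2 went from 7.72 ± 0.372 to 48.0 ± 1.95 FPKM and IFI35 from 21.3 ± 1.63 to 114 ± 1.67 FPKM. For ANXA10 they were ITIH2, AKR1B10 and CCNA2, at 0.12, 0.18 and 0.26, against a median of 4.29. ITIH2 went from 45.5 ± 1.55 to 3.71 ± 0.251 FPKM and CCNA2 from 82.9 ± 3.53 to 6.38 ± 0.635 FPKM. Since the libraries fall into 2 groups, these distances describe mainly a like difference between the groups.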

How the data were processed

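RNA sequencing levels of 6 MHCC-97H libraries were used as the authors deposited them, in FPKM per gene symbol with 2 decimals. FastQC 0.11.5, HISAT2, featureCounts, edgeR and hg38 are named in the submitters' processing notes without their roles, and the annotation, strand handling and read totals are named in none of the sources used here. FPKM is relative to each library's total, and differences in the amount of RNA per cell are not visible. Groups and replicate numbers came from the titles.

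The test, limma 3.58.1 under R 4.3.3, used log2(FPKM + 1) of genes whose mean reached 1 FPKM, with treatment as the only term, an intensity trend, and Benjamini-Hochberg adjustment over all 11573 genes. On this scale low genes change less than they do in FPKM, whereas folds were taken between group means of FPKM. Same-numbered libraries were not paired (correlations of their deviations 0.031, 0.047 and -0.002). The fit was tested on simulated data in which few genes changed and no shift was shared. In the real libraries 75.9% of tested genes were called, so that test cannot show how reliable these calls are. Relative depth came from the commonest ratio of low values between libraries. Positions and transcript identity (blastn) are from GENCODE 29, promoters from RefSeq. Alternatives were the pseudocount, expression limit, 3 rescalings, replicate block, trend, array weights, treat and each library left out.

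The annexins and the related lists were chosen with earlier results of these data known. The named-gene rule took all 10 annexins, the S100 partners and up to 4 called genes per list, those with the greatest changes in both directions, and the 3 nearest patterns to the largest rise and fall. SRI, PDCD6, EHD2, CHMP4A, CHMP4B, CAV1, PLG, S100B, S100A12, ANXA13, ANXA2R, ANXA8L1, the receptors FPR1 to FPR3 and the neighbouring genes fall outside it and were named after their values were seen. Some genes that this rule or the marker lists hold are not reported here.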

Additional observations from a re-analysis of the deposited data

How the results depend on the processing

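Refits of single annexins kept direction and side of the threshold in 127 cases. Of the others 3 reversed in sign, and with the sign kept 3 gained and 3 lost a call. A reversed refit can also have gained a call, as ANXA5 did. ANXA5 turned to -0.14 with median-ratio and -0.070 with upper-quartile scaling, called lower in each, and was called higher with quantile normalization (0.26). ANXA11 was called lower with median-ratio (-0.18) and upper-quartile scaling (-0.10) and ranged from -0.034 to 0.013 when a library was left out, the last without the second GK921 library and uncalled. ANXA4 lost its call with median-ratio scaling and ANXA2 and ANXA4 theirs in the test against a 1.2-fold change, where 5730 genes were called in all and 1 annexin (ANXA10) lower. The number of annexins called lower was 4 with median-ratio and 4 with upper-quartile scaling, beside 2. Over all 11573 tested genes the lower calls also grew, to 4314 and 3876, beside 3378. With the replicate number as a block 8706 genes were called, beside 8789, and the same 6 annexins, so the replicate block changed no annexin call. The S100 partner ratios kept their direction in 30 refits, the smallest being 0.23 for ANXA11 to S100A6 after quantile normalization, beside 0.74. Not all of these refits could differ. The replicate block leaves the mean difference the same by construction, and the pseudocounts are small beside these levels. An exact p under 0.1 cannot come from 3 against 3 libraries. Depth limits ANXA6 and ANXA8, whose values near 0 rest on few fragments. The cause of the scaling effects was not tested. The log2 change of the median gene was 0.16 as deposited, 0.0070 with median ratios, 0.074 with upper quartiles and 0.027 with quantile normalization.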
